A study of Mus musculus with 9 samples.

Results

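The laminin chains, the proteins that link them into the basement membrane and the integrin chains were examined in ribosome-bound mRNAs of mouse astrocytes. The members were all protein-coding genes whose symbols mark them as a laminin α, β or γ chain or an integrin α or β chain, together with Nid1, Nid2, Hspg2 and Agrn. The rule took 41 of the 22092 genes that could be matched, that is 11 laminin chains, 4 linkers and 26 integrin chains.

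The study asked which mRNAs are attached to ribosomes in the perivascular endfeet of astrocytes, the distal swellings that wrap brain vessels. All mice were 2 months old and carried the Aldh1L1-L10aGFP transgene (strain Aldh1L1 JD130), in which the Aldh1l1 astrocyte promoter drives the ribosomal protein L10a fused to GFP. Tagged ribosomes were immunoprecipitated from whole brain in 3 whole astrocyte TRAP libraries, with 1 mouse for each, and from purified brain vessels in 6 endfeet TRAP libraries, each pooled from 8 mice. No other treatment or genotype was compared, and nothing says whether the whole astrocyte libraries came from separate days, so that p-values measure the spread between these libraries.

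Laminins are trimers of an α, a β and a γ chain that polymerize on cell surfaces. Nidogens (Nid1, Nid2) and the heparan sulfate proteoglycans perlecan (Hspg2) and agrin (Agrn) join the laminin network to type IV collagen and to cells, and integrins, dimers of an α and a β chain, anchor cells to it. Around brain vessels, astrocyte endfeet, endothelial cells and mural cells all face basement membranes, and in textbook accounts Lama1 and Lama2 belong mainly to the parenchymal sheet on which endfeet rest and Lama4 and Lama5 mainly to the endothelial sheet.

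Promoter windows are shown for the laminin, the linker and the integrin with the largest fold change among members that the RefSeq table covers, and for the integrin with the highest level per kilobase in whole astrocyte TRAP, which did not pass the test. They are RefSeq sequences of GRCm38.p6, 250 bases before to 50 bases after a transcription start, written 5′ to 3′ on the strand of the gene, with each GC box (GGGCGG on either strand) in capitals. The windows lie at chr2:180225810-180226109, minus strand, for Lama5, chr4:137468553-137468852, plus strand, for Hspg2, chr13:115101915-115102214, minus strand, for Itga1, and chr12:119238227-119238526, minus strand, for Itgb8.
Lama5: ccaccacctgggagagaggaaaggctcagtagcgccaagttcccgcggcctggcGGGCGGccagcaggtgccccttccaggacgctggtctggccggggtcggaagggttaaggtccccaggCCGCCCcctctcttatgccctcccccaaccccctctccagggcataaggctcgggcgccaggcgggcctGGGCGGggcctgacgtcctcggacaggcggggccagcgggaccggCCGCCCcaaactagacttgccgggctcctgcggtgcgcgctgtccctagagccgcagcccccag
Hspg2: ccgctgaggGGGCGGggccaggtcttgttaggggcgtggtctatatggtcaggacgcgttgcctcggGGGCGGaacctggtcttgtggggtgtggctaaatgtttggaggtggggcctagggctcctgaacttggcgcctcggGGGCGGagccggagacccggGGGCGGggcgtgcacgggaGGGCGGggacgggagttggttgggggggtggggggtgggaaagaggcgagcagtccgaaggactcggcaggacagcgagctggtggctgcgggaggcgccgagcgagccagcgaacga
Itga1: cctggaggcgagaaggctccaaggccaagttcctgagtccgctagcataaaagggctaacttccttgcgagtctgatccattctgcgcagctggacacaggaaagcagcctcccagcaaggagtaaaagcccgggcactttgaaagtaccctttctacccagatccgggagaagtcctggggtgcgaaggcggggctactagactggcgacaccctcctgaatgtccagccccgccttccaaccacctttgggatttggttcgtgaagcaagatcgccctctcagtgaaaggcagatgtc
Itgb8: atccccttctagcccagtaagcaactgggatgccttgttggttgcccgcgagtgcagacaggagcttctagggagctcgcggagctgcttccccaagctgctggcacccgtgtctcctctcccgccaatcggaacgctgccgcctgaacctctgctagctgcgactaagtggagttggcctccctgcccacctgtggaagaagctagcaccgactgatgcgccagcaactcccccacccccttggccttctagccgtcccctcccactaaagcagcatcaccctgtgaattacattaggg

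Hspg2 held 5 GC boxes and Lama5 held 4, while the windows of Itga1 and Itgb8 held none. RefSeq windows were matched for 26 of the 41 members, and the window nearest to the start of the counted transcript was taken. For Agrn, counted on a non-coding transcript, the start of its protein-coding transcript with the highest summed CPM was used instead. The start of the window lay 358 bases from the start used for Agrn and 105002 bases from that for Itga9. For Itgb8, whose window is shown, it lay between these distances. The windows of these 3 genes therefore do not hold the start used. The window of Itga4, whose start lay 74 bases from the counted one, does not hold it either. For Lama2, at 99 bases, the side on which the counted start lies is not given. A GC box was found in 14 of the 26, against 35.7% of the 32851 RefSeq windows of the same length. An AP-1 type motif (TGANTCA) was found in 2 of the 26, against 7.81% of all windows, an ETS type motif (ACNGGAAG) in 0, against 8.15%, and a TATA box (TATAAA) in 0, against 13.6%. Both strands were searched and no overlap between motifs was removed. The median GC content of the members' windows was 59.3%, and that of all windows 52.7%. A match is a run of letters and not a binding site.

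Most members were higher in endfeet TRAP than in whole astrocyte TRAP, and none of those tested was lower. Of the 41 members, 36 had enough counts to be tested, 29 of these were higher at an adjusted p of at most 0.05 (quasi-likelihood test of edgeR, adjusted after Benjamini and Hochberg over 14427 genes), 0 were lower and 7 did not pass. Over all genes tested, 20.7% were higher and 13.9% lower. The median log2 fold change of the tested members was 4.64, and that of all genes tested was 0.0965. All 6 endfeet libraries lay above all 3 whole astrocyte libraries for 24 of the 41 members, all of them among the 36 tested, against 18.9% of all genes tested. All lay below for 1 member, Itgad, which was not tested, and the share of such genes over all genes is not given here. By family, 9 of 10 laminin chains tested, 4 of 4 linkers and 16 of 22 integrin chains tested were higher, with median log2 fold changes of 5.70, 6.36 and 4.19. The counts summed over the 41 members made up 296 to 330 CPM (counts scaled by the library total, itself adjusted by TMM) in whole astrocyte TRAP and 2756 to 4037 CPM in endfeet TRAP. A gene could enter the test through its level in 1 group alone. Lamc3 was tested with 2 to 7 counts in whole astrocyte libraries. Itgad was not, with 23 to 35 counts there and 0 to 2 in endfeet libraries. The numbers of calls therefore depend in part on the filter. With no filter beyond 1 count in total, 28 of 41 members were higher and 1 was lower. Of all 17542 genes tested in that way, 2765 were higher and 2183 lower.

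Markers of vascular cells moved the same way. All 10 of 10 endothelial markers rose, and their summed level was 6.73 to 7.64 CPM in whole astrocyte TRAP and 3233 to 5030 CPM in endfeet TRAP. All 10 of 10 mural markers rose, from 35.8 to 38.0 CPM to 3577 to 8108 CPM, as did 9 of 10 fibroblast markers, from 81.2 to 117 CPM to 1721 to 3249 CPM, and 7 of 10 microglia and macrophage markers, from 29.4 to 32.4 CPM to 250 to 371 CPM. No marker of these 4 lists was at 0 in all libraries of a group. Astrocyte markers summed to 22856 to 25093 CPM in whole astrocyte TRAP and 9756 to 29902 CPM in endfeet TRAP, with 1 of 10 higher (Aqp4) and 4 of 10 lower. Neuron markers were lower for 4 of 10 and oligodendrocyte markers for 2 of 10, with none higher. The part of other cells' RNA in the results below was not tested, and in such bulk libraries fewer cells of a type and less RNA per cell cannot be told apart.

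**Figure D1:**
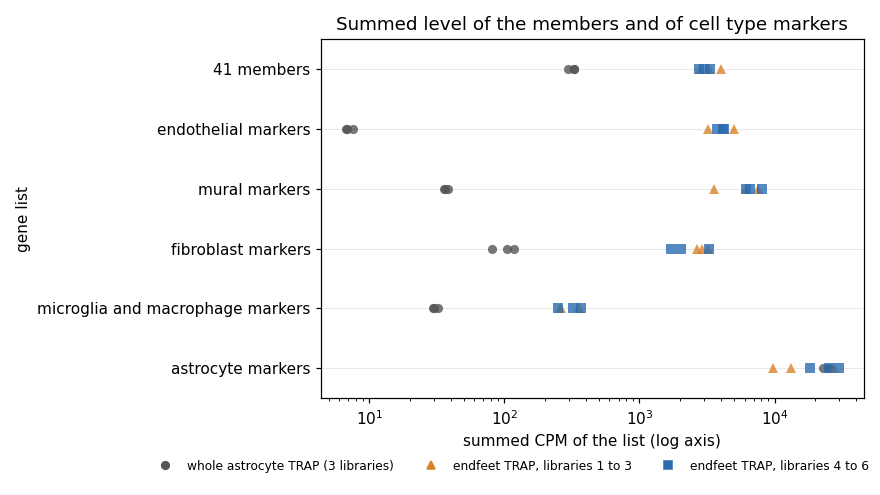
Summed CPM (log axis) of the 41 members and of 5 marker lists of 10 genes each, with 1 point for each library, as circles for whole astrocyte TRAP, triangles for endfeet libraries 1 to 3 and squares for endfeet libraries 4 to 6. The members' sum was 296 to 330 CPM in whole astrocyte TRAP and 2756 to 4037 CPM in endfeet TRAP, and the groups are farther apart for the endothelial and mural markers than for the members.

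Library depth differed between groups. Counts assigned to genes totalled 35984144 to 43521208 in whole astrocyte libraries and 2319495 to 13450588 in endfeet libraries, and 3 counts, taken as the smallest amount a library can show, stood for 0.0689 to 0.0834 CPM and 0.223 to 1.29 CPM. The spread between libraries was also unequal, and the common dispersion was 0.0141 for whole astrocyte TRAP against 0.725 for endfeet TRAP. The libraries carry numbers that fall into 2 series of unstated meaning, of which one holds endfeet libraries 1 to 3 and the other holds endfeet libraries 4 to 6 and all whole astrocyte libraries. Within the shared series alone, 27 members were higher and 2 were lower (Itgae and Itgad, described with the leukocyte integrins). Of all 14339 genes tested there, 2798 were higher and 2819 lower. With the series as a covariate over all libraries, 26 members were higher and 1 was lower (Itgae), and Itgav, Itgb3, Itgb5 and Itgb6 lost their calls. Of all 14427 genes tested with it, 2679 were higher and 1670 lower.

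**Figure D2:**
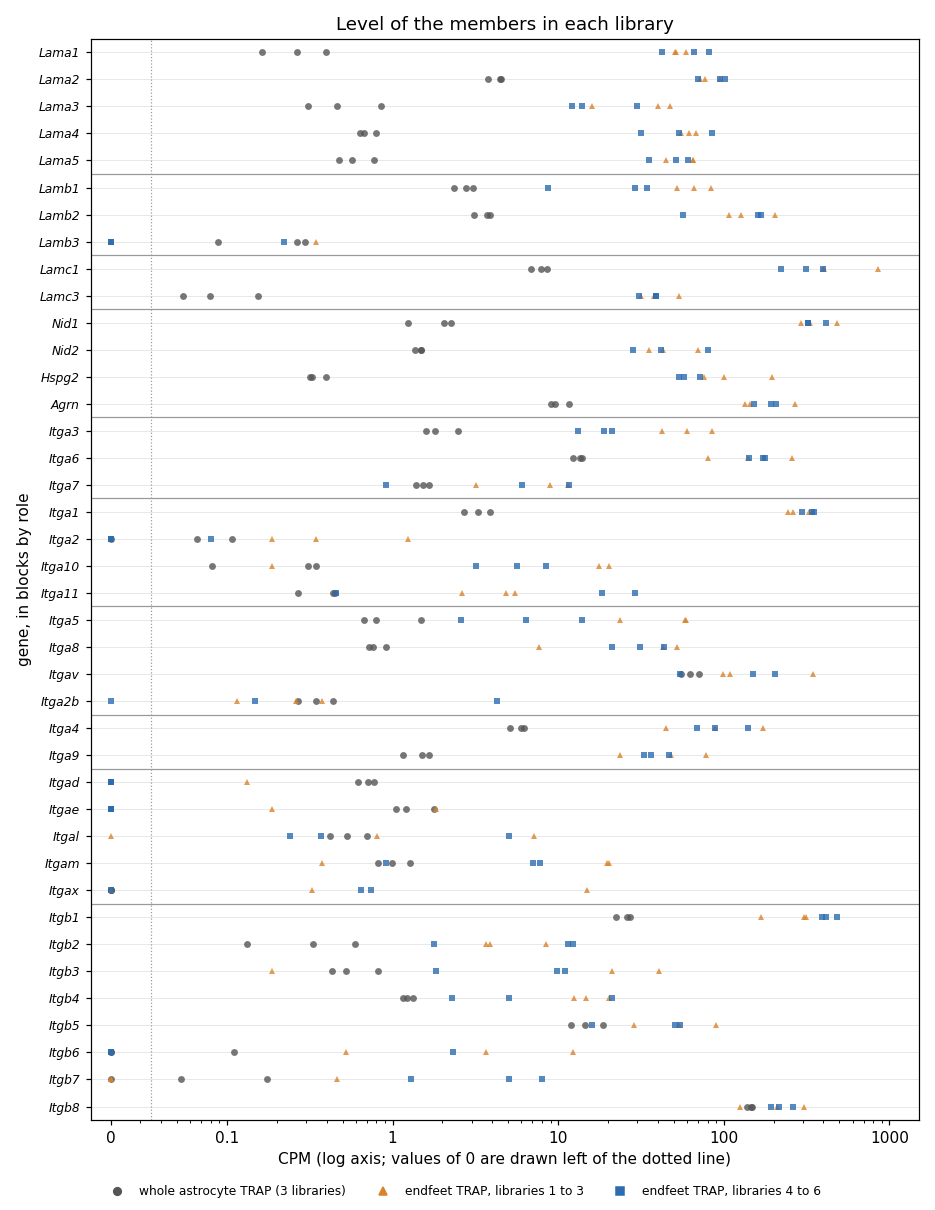
CPM of the members in each of the 9 libraries on a log axis, with values of 0 drawn left of the dotted line and the members in blocks by role (1 member is not shown). Whole astrocyte libraries are circles, endfeet libraries 1 to 3 triangles and endfeet libraries 4 to 6 squares, and the endfeet points lie right of all circles for 24 members.

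The 5 laminin α chains, which carry the cell-binding end of the trimer, were all higher in endfeet TRAP. Lama2, the chain mutated in a congenital muscular dystrophy, had the highest level per kilobase of these 5 in whole astrocyte TRAP, with 4.46, 3.78 and 4.49 CPM in the 3 libraries. Its endfeet libraries had a lowest level of 69.7, a median of 85.7 and a highest of 102 CPM. The groups were far apart and the endfeet libraries close to each other, and Lama2 rose by a log2 fold change of 4.32 (SE 0.39, edgeR adjusted p = 3.87e-06). Lama1 (chr17:67697259-67822647), a chain of embryonic and retinal basement membranes, gave 0.162, 0.264 and 0.395 CPM in whole astrocyte TRAP, from 6 to 18 counts. In endfeet TRAP it gave 42.5 at the lowest, 55.3 at the median and 81.2 CPM at the highest. No library of one group came near the other, with a log2 fold change of 7.70 (SE 0.61, edgeR adjusted p = 1.26e-06).

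Both chains of the endothelial sheet rose. Lama4 (chr10:38965515-39110188) had 0.675, 0.793 and 0.636 CPM in whole astrocyte TRAP and 31.5, 58.3 and 85.3 CPM as the lowest, median and highest endfeet libraries, a log2 fold change of 6.39 (SE 0.56, edgeR adjusted p = 2.88e-06). Lama5 (chr2:180176373-180225859) had 0.567, 0.476 and 0.767 CPM against 35.6, 56.2 and 65.6 CPM, a log2 fold change of 6.47 (SE 0.55, edgeR adjusted p = 2.45e-06). For both, every endfeet library exceeded every whole astrocyte library. Lama3, the α chain of the skin laminin, was more spread in endfeet TRAP, with 12.2, 23.0 and 47.1 CPM against 0.459, 0.846 and 0.307 CPM, and still rose (log2 fold change 5.61, SE 0.84, edgeR adjusted p = 0.000223).

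The mix of α chains differed between the groups. As a share of the CPM per kilobase of transcript summed over the 5 α chains, Lama2 took 58.3% to 67.6% in whole astrocyte TRAP and 22.3% to 33.5% in endfeet TRAP, so the ranges did not overlap. The share of Lama1 was 2.48% to 5.83% and 13.7% to 28.8%, and that of Lama5 6.20% to 9.48% and 10.5% to 18.3%, again without overlap. Lama4, at 14.8% to 19.5% and 17.6% to 43.5%, and Lama3, at 4.10% to 11.9% and 3.59% to 14.0%, overlapped between groups.

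The mix was also compared by ratios of counts within a library, which do not depend on the scaling between libraries. The pairs were chosen with earlier results of these data known, and they use the same counts as the shares. Their p-values therefore give no independent support for the shift. In all, 13 pairs of members were compared by a two-sided exact permutation test over the 84 ways to split 9 libraries into 6 and 3. Its smallest possible p is 0.0119, and p-values were adjusted over the 13 pairs. The log2 ratio of Lama1 to Lama2 was -3.97 ± 0.62 (SD, n = 3) in whole astrocyte TRAP and -0.55 ± 0.18 (SD, n = 6) in endfeet TRAP (exact permutation p = 0.0119, adjusted p = 0.0172). Lama4 to Lama2 went from -2.58 ± 0.30 to -0.57 ± 0.64 and Lama5 to Lama2 from -2.81 ± 0.24 to -0.67 ± 0.49 (for each, exact permutation p = 0.0119, adjusted p = 0.0172). In these 3 pairs all 6 endfeet ratios lay above all 3 whole astrocyte ratios. The ratio of Lama5 to Lama4 was -0.23 ± 0.49 and -0.11 ± 0.31, and the groups overlapped (exact permutation p = 0.631, adjusted p = 0.631).

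**Figure D3:**
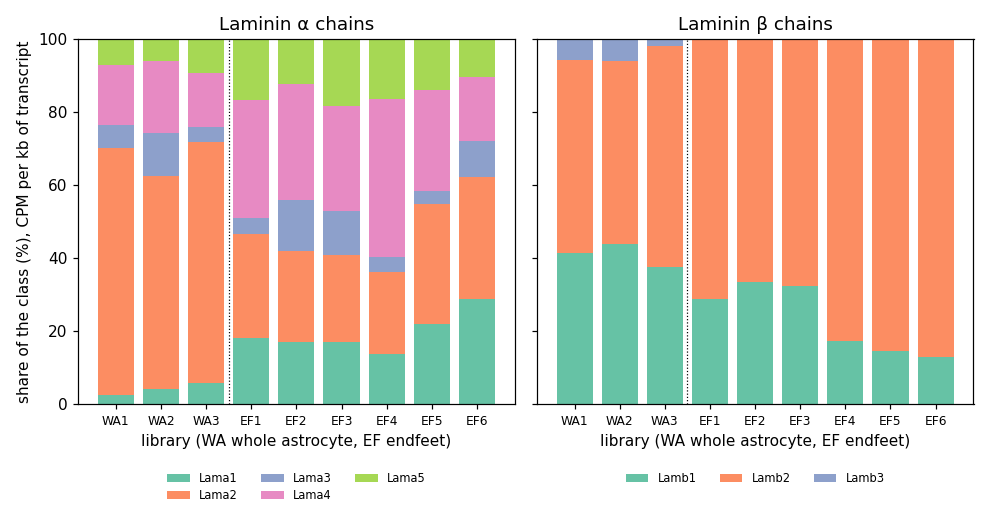
Share of each laminin chain (%) in the CPM per kilobase of transcript summed over its class, stacked to 100% for each library, with α and β chains in separate panels, WA for whole astrocyte and EF for endfeet libraries and a dotted line between the groups. Lama2 takes 58.3% to 67.6% of the α chains in whole astrocyte TRAP and 22.3% to 33.5% in endfeet TRAP, and Lamb2 takes 50.2% to 60.6% and 66.3% to 87.1% of the β chains.

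Among the β chains, Lamb1 and Lamb2 rose and Lamb3 could not be tested. Lamb2, a chain of vascular, synaptic and kidney laminins, had 3.86, 3.09 and 3.71 CPM in whole astrocyte TRAP and 57.0, 144 and 204 CPM as the lowest, median and highest endfeet libraries (log2 fold change 5.27, SE 0.49, edgeR adjusted p = 4.74e-06). Lamb1, the widespread β chain, had 3.08, 2.78 and 2.35 CPM against 8.67, 43.5 and 84 CPM (log2 fold change 4.07, SE 0.72, edgeR adjusted p = 0.000812). The groups were separate for both, and the ratio of Lamb2 to Lamb1 moved from 0.38 ± 0.26 (SD, n = 3) to 1.78 ± 0.78 (SD, n = 6) on the log2 scale (exact permutation p = 0.0238, adjusted p = 0.0310). The ratio split by series, at 0.95 to 1.28 in endfeet libraries 1 to 3 and 2.21 to 2.69 in endfeet libraries 4 to 6. The highest whole astrocyte ratio was 0.66. All 3 endfeet libraries of the series without whole astrocyte libraries exceeded the other 3 in Lamb1. Such an order was seen for 5 of the 41 members, against 5.84% of all genes tested. The opposite order was seen for 2 of the 41, against 5.03%. The 5 were Lamb1, Hspg2, Itga3, Itga5 and Itga2, of which Itga2 was not among the genes tested. The 2 were Itgb1 and Itgb7. Lamb3, a partner of Lama3 in skin, stayed at 4 to 11 counts in whole astrocyte libraries and 0 to 3 counts in endfeet libraries.

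Lamc1, the γ chain that most laminins share, had 7.89, 6.85 and 8.62 CPM in whole astrocyte TRAP and 222, 398 and 851 CPM at the lowest, median and highest in endfeet TRAP (log2 fold change 5.79, SE 0.49, edgeR adjusted p = 2.24e-06). Lamc3 (chr2:31887291-31946539), a γ chain known from retina and cortical surface, had the largest fold change of the members, with 0.054, 0.0793 and 0.153 CPM (2, 3 and 7 counts) against 30.9, 38.3 and 53.6 CPM (log2 fold change 8.55, SE 0.72, edgeR adjusted p = 2.03e-06). The groups were fully separate, but the fold rests on those few counts in whole astrocyte TRAP. Lamc3 relative to Lamc1 rose from -6.27 ± 0.58 (SD, n = 3) to -3.38 ± 0.50 (SD, n = 6) on the log2 scale (exact permutation p = 0.0119, adjusted p = 0.0172).

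All 4 linkers were higher in endfeet TRAP, with every endfeet library above every whole astrocyte library. Nid1 (chr13:13437551-13512269), the nidogen that bridges laminin γ chains and type IV collagen, had 2.27, 1.24 and 2.04 CPM in whole astrocyte TRAP and 292, 328 and 486 CPM at the lowest, median and highest in endfeet TRAP. Its log2 fold change was 7.61 (SE 0.41, edgeR adjusted p = 9.92e-08). Nid2, its relative, had a like level in whole astrocyte TRAP, 1.49, 1.48 and 1.36 CPM, but reached 28.3, 42.2 and 80.3 CPM in endfeet TRAP (log2 fold change 5.10, SE 0.58, edgeR adjusted p = 2.53e-05). The nidogens thus separated, and the log2 ratio of Nid2 to Nid1 went from -0.31 ± 0.49 (SD, n = 3) to -2.94 ± 0.61 (SD, n = 6; exact permutation p = 0.0119, adjusted p = 0.0172). Of the counted Nid2 exons 8.96% overlap Rtraf on the other strand, and the strand setting of the counting is not stated.

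The proteoglycans instead came closer to each other. Hspg2 (chr4:137468769-137570630), which encodes perlecan, had 0.324, 0.317 and 0.395 CPM in whole astrocyte TRAP, from 12 to 18 counts, and 53.4, 73.7 and 195 CPM in endfeet TRAP (log2 fold change 8.03, SE 0.67, edgeR adjusted p = 1.89e-06). Agrn, whose product clusters acetylcholine receptors at the neuromuscular junction and lies in the brain's vascular basement membranes, was the highest linker per kilobase in whole astrocyte TRAP, at 9.10, 9.57 and 11.6 CPM, and had 135, 172 and 268 CPM in endfeet TRAP (log2 fold change 4.18, SE 0.36, edgeR adjusted p = 2.72e-06). The log2 ratio of Agrn to Hspg2 fell from 4.82 ± 0.05 (SD, n = 3) to 1.10 ± 0.59 (SD, n = 6), with no overlap (exact permutation p = 0.0119, adjusted p = 0.0172). The transcript counted for Agrn is annotated as a retained intron. With its protein-coding transcript in its place the log2 fold change was 4.06.

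**Figure D4:**
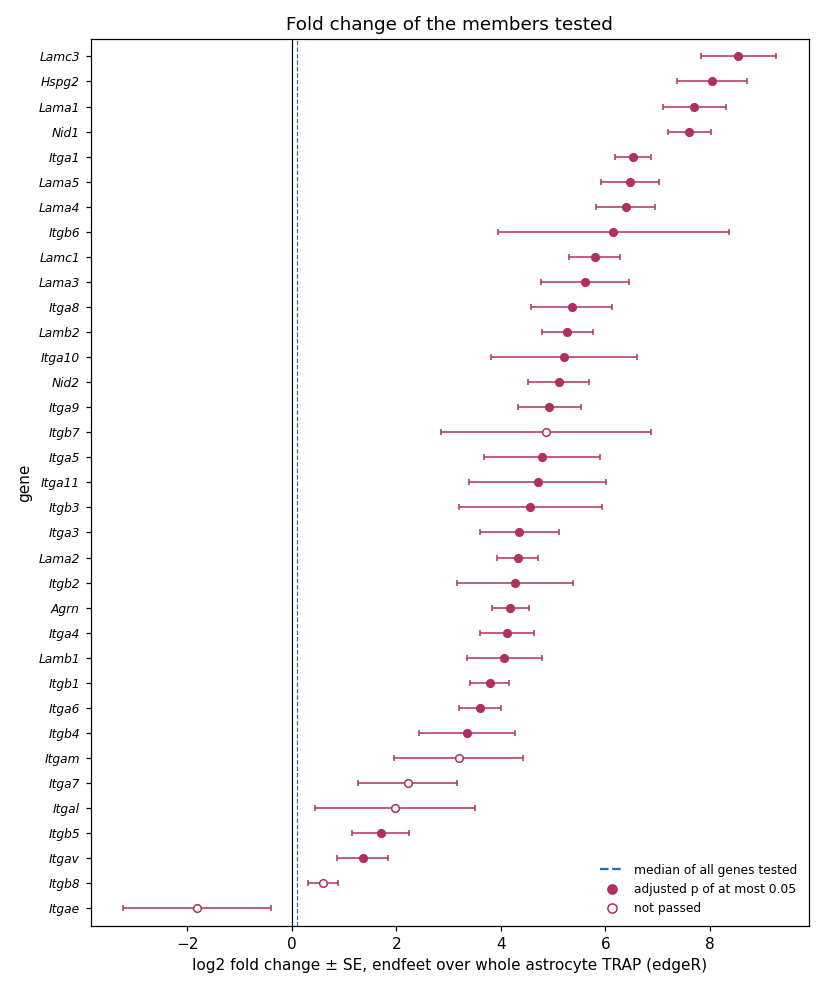
Log2 fold change of endfeet over whole astrocyte TRAP with its standard error (edgeR, 9 libraries) for the members tested (1 is not shown), filled where the adjusted p was at most 0.05 and open where it was not, with a dashed line at the median of all genes tested, 0.0965. The 29 filled points run from 1.36 for Itgav to 8.55 for Lamc3.

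Of the integrin α chains that bind laminin, Itga6 and Itga3 rose and Itga7 did not pass. Itga6, which pairs with Itgb1 or Itgb4 and is a known chain of brain endothelium, had 13.6, 12.3 and 14.0 CPM in whole astrocyte TRAP and 80.0, 158 and 259 CPM at the lowest, median and highest in endfeet TRAP (log2 fold change 3.60, SE 0.41, edgeR adjusted p = 2.51e-05). The transcript counted for it is annotated as non-coding, and with the protein-coding one the log2 fold change was 3.41. Itga3 had 1.81, 1.59 and 2.48 CPM against 13.2, 31.8 and 85.5 CPM (log2 fold change 4.36, SE 0.76, edgeR adjusted p = 0.000733). Every endfeet library was above every whole astrocyte library for these 2 genes. Itga7, best known from muscle, had 1.38, 1.53 and 1.67 CPM against 0.913, 7.49 and 11.7 CPM, so that 5 of 6 endfeet libraries were above all whole astrocyte libraries (log2 fold change 2.22, SE 0.95, edgeR adjusted p = 0.0864). Its ratio to Itga6 went from -3.12 ± 0.16 (SD, n = 3) to -4.79 ± 1.18 (SD, n = 6), and the difference missed the threshold after adjustment (exact permutation p = 0.0476, adjusted p = 0.0516).

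The α chains that bind collagen were led by Itga1 (chr13:114953096-115101964). It had 3.89, 2.70 and 3.27 CPM in whole astrocyte TRAP and 246, 311 and 350 CPM at the lowest, median and highest in endfeet TRAP, the smallest relative spread of the 41 members in that group (coefficient of variation 14.2%). Its log2 fold change was 6.53 (SE 0.34, edgeR adjusted p = 9.78e-08). The log2 ratio of Itga1 to Itga6 turned from -2.03 ± 0.20 (SD, n = 3) to 0.98 ± 0.44 (SD, n = 6), on counts not divided by transcript length (exact permutation p = 0.0119, adjusted p = 0.0172). Itga10 and Itga11, chains of cartilage and of fibroblasts, passed with large errors, at log2 fold changes of 5.21 (SE 1.40, edgeR adjusted p = 0.0113) and 4.70 (SE 1.31, edgeR adjusted p = 0.0140). Their endfeet libraries ran from 0.187 to 20.2 CPM and from 0.456 to 29.1 CPM, and of the counted Itga10 exons 34.5% are shared with another gene model on the same strand. Itga11 lost its call without any 1 of the whole astrocyte libraries and Itga10 without library 1 or 3 of them (edgeR adjusted p up to 0.0723 and 0.0632). Itga2 had 0 to 4 counts in whole astrocyte libraries and 0 to 19 counts in endfeet libraries and was not tested.

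Among the α chains that recognize the RGD motif of fibronectin and vitronectin, Itga8, Itga5 and Itgav passed, and Itgav by the smallest margin. Itga8 had 0.918, 0.767 and 0.724 CPM in whole astrocyte TRAP and 7.69, 37.0 and 52.5 CPM in endfeet TRAP (log2 fold change 5.35, SE 0.78, edgeR adjusted p = 0.000173). Itga5, the fibronectin receptor chain, had 0.675, 0.793 and 1.49 CPM against 2.58, 18.8 and 59.5 CPM (log2 fold change 4.79, SE 1.11, edgeR adjusted p = 0.00474). Both had separate groups, and the endfeet libraries differed widely from each other. Itgav, which pairs with Itgb1, Itgb3, Itgb5, Itgb6 or Itgb8, was already at 70.5, 54.9 and 62.5 CPM in whole astrocyte TRAP and had 54.3, 130 and 344 CPM in endfeet TRAP, where 5 of 6 libraries exceeded all whole astrocyte libraries (log2 fold change 1.36, SE 0.49, edgeR adjusted p = 0.0474). That call was kept under 10 of 21 alternatives. It was lost within the shared series and with the library series as a covariate. Leaving out any whole astrocyte library or endfeet library 1, 4 or 5 also removed it. So did no filter beyond 1 count in total, counts summed over transcripts and the protein-coding transcript only. Over all alternatives the edgeR adjusted p was up to 0.161 and the log2 fold change of Itgav was 0.99 to 1.54. Itga2b, the platelet chain, had 10 to 20 counts in whole astrocyte libraries and 0 to 53 counts in endfeet libraries and was not tested. Of 4 platelet and megakaryocyte markers tested among 8, 2 rose, Pf4 (0.505 to 7.99 CPM as group means) and Ppbp (0.147 to 34.1 CPM). The sum of all 8 was 50.9 to 52.5 CPM in whole astrocyte TRAP and 24.6 to 191 CPM in endfeet TRAP, and Gp1bb, 48.2 to 51.4 CPM of it in whole astrocyte TRAP, was at 5.05 to 39.6 CPM in endfeet TRAP (log2 fold change -1.17, edgeR adjusted p = 0.110, not passed). Of the list, Gp9, Treml1 and Gp6 were at 0 in all whole astrocyte libraries and Treml1 in all endfeet libraries.

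Itga4 and Itga9, which bind VCAM-1, fibronectin, tenascin and osteopontin, both rose without overlap. Itga4 had 6.21, 5.16 and 5.96 CPM against 44.6, 88.4 and 173 CPM (log2 fold change 4.12, SE 0.51, edgeR adjusted p = 5.14e-05), and 11.5% of its counted exons overlap Cerkl on the other strand. Itga9 had 1.51, 1.16 and 1.67 CPM against 23.6, 41.7 and 77.6 CPM (log2 fold change 4.93, SE 0.60, edgeR adjusted p = 4.34e-05).

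Of the 5 α chains of leukocytes, 3 were tested and none of these passed, and Itgad and Itgae had lower values in most endfeet libraries. Itgad was the one member with all endfeet libraries below all whole astrocyte libraries, at 0.621, 0.714 and 0.767 CPM in whole astrocyte TRAP and 0 CPM in 5 endfeet libraries and 0.131 CPM in the other, too few counts to be tested with the rest. Of the counted Itgad exons 14.1% overlap other gene models on the other strand, among them Cox6a2. Itgae, an epithelial lodging receptor of T cells, had 1.05, 1.77 and 1.21 CPM against 0 CPM in 4 endfeet libraries and 0.187 and 1.84 CPM in libraries 1 and 3 (log2 fold change -1.82, SE 1.41, edgeR adjusted p = 0.340). Without endfeet library 3 Itgae was lower, with a log2 fold change of -5.33 (edgeR adjusted p = 0.00866). In endfeet library 6, 3 counts stand for 1.29 CPM, so a level like that of whole astrocyte TRAP was not detectable there for Itgad.

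The other 3 leukocyte chains were low and uneven. Itgam, of microglia and macrophages, ran from 0.375 to 20.3 CPM in endfeet TRAP, with 4 of 6 libraries above all whole astrocyte libraries (edgeR adjusted p = 0.0607), and 73.7% of its counted exons overlap another gene model on the same strand. Itgal, of lymphocytes, ran from 0 to 7.12 CPM (edgeR adjusted p = 0.337). Itgax, of dendritic cells, was listed at 0 in all 3 whole astrocyte libraries and at 0 to 15.0 CPM in endfeet libraries, and was not tested. Beside them, 3 of 3 neutrophil markers tested among 8 rose, with a sum of 0.0793 to 0.108 CPM in whole astrocyte TRAP and 0 to 38.8 CPM in endfeet TRAP, Ngp, Camp, Ly6g, Retnlg and Elane at 0 in all whole astrocyte libraries and all of these except Ngp at 0 in all endfeet libraries. Of 2 lymphocyte markers tested among 8, 1 rose.

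The β chains changed rank between the groups. Itgb8 (chr12:119158022-119238802), which with αv activates latent TGF-β, had the highest level per kilobase of all 41 members in whole astrocyte TRAP, 148, 138 and 146 CPM, and 125, 211 and 304 CPM at the lowest, median and highest in endfeet TRAP. The groups overlapped, with 5 of 6 endfeet libraries above, and the difference did not pass (log2 fold change 0.59, SE 0.29, edgeR adjusted p = 0.129). Itgb1, the partner of most α chains that bind laminin and collagen, had 26.1, 22.4 and 27.0 CPM against 169, 355 and 484 CPM, without overlap (log2 fold change 3.78, SE 0.38, edgeR adjusted p = 8.03e-06). As a share of the β chains per kilobase, Itgb8 took 55.8% to 61.1% in whole astrocyte TRAP and 11.8% to 30.5% in endfeet TRAP, and Itgb1 21.4% to 23.7% and 37.3% to 75.7%. The log2 ratio of Itgb8 to Itgb1 went from 2.52 ± 0.10 (SD, n = 3) to -0.65 ± 0.78 (SD, n = 6), with all endfeet ratios below (exact permutation p = 0.0119, adjusted p = 0.0172).

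Of the αv chain and its partner Itgb5, the first passed in its ratio to Itgb1. For Itgav to Itgb1 the log2 ratio was 1.31 ± 0.11 (SD, n = 3) and -1.28 ± 1.28 (SD, n = 6), again with all endfeet ratios below (exact permutation p = 0.0119, adjusted p = 0.0172). Itgb5, an αv partner that binds vitronectin, had 12, 14.5 and 18.7 CPM against 16.0, 52.3 and 89.6 CPM, with 5 of 6 endfeet libraries above (log2 fold change 1.70, SE 0.54, edgeR adjusted p = 0.0272). Itgb5 lost its call without any 1 of the whole astrocyte libraries or without endfeet library 4 or 5, and also within the shared series and with the library series as a covariate (edgeR adjusted p up to 0.115). Its ratio to Itgb1 went from -0.76 ± 0.32 (SD, n = 3) to -2.94 ± 1.23 (SD, n = 6) and missed the threshold after adjustment (exact permutation p = 0.0476, adjusted p = 0.0516). Of the 13 pairs, 10 passed. Endfeet libraries 4 to 6 alone gave all 13 ratio differences the same sign against whole astrocyte TRAP, but 3 libraries against 3 cannot give a p below 0.1.

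**Figure D5:**
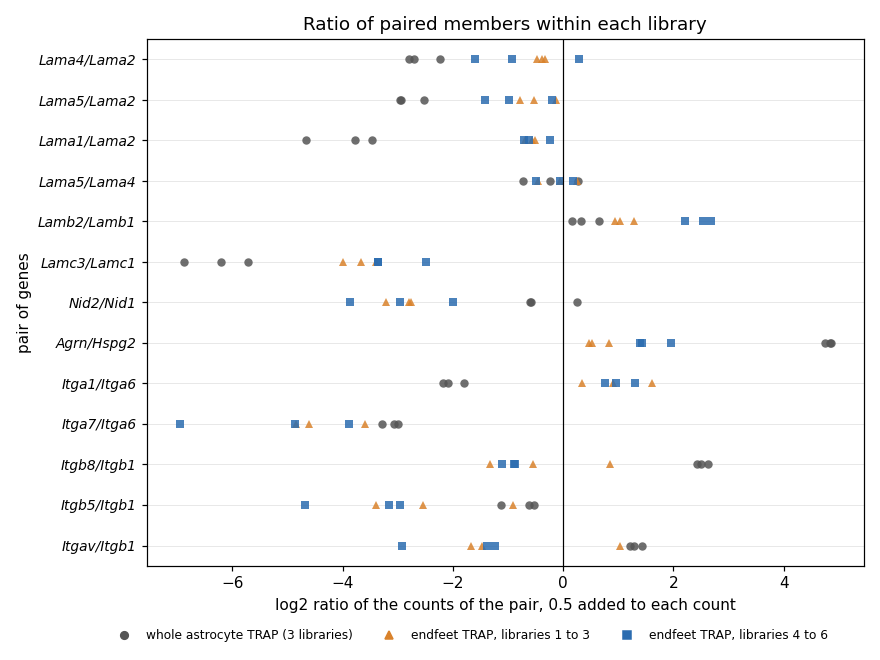
Log2 ratio of the counts of 13 pairs of members in each of the 9 libraries, 0.5 added to each count, with circles for whole astrocyte libraries, triangles for endfeet libraries 1 to 3 and squares for endfeet libraries 4 to 6 and a line at equal counts. The endfeet ratios of Lama1 to Lama2 lie above all whole astrocyte ratios and those of Itgb8 to Itgb1 below, whereas those of Lama5 to Lama4 overlap.

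The low β chains had wide errors. Itgb2, the leukocyte β chain, rose from 0.594, 0.132 and 0.329 CPM to 1.77, 6.15 and 12.3 CPM (log2 fold change 4.27, SE 1.11, edgeR adjusted p = 0.00958), and Itgb4, the laminin-binding partner of Itga6, from 1.22, 1.16 and 1.34 CPM to 2.28, 13.6 and 21.1 CPM (log2 fold change 3.35, SE 0.91, edgeR adjusted p = 0.0124), both without overlap. Itgb3, the αv partner on platelets and angiogenic endothelium, ran from 0.187 to 40.5 CPM in endfeet TRAP and overlapped the 0.432, 0.820 and 0.526 CPM of whole astrocyte TRAP (log2 fold change 4.57, SE 1.37, edgeR adjusted p = 0.0209). Itgb6, an epithelial chain, passed at a log2 fold change of 6.15 (SE 2.20, edgeR adjusted p = 0.0456) with 0, 0 and 5 counts in whole astrocyte libraries and 0 counts in endfeet libraries 5 and 6, and its fold therefore rests on few counts. Itgb7 ran from 0 to 7.95 CPM and did not pass (log2 fold change 4.86, SE 2.00, edgeR adjusted p = 0.0771). Itgb3, Itgb4 and Itgb6 lost their calls without any 1 of the whole astrocyte libraries and Itgb2 without whole astrocyte library 2 or 3. Itgb3 and Itgb6 also lost them with the library series as a covariate or the replicate number as a block, and Itgb6 with no filter beyond 1 count in total, with edgeR adjusted p-values over all alternatives of up to 0.108 (Itgb3), 0.0691 (Itgb4), 0.165 (Itgb6) and 0.0690 (Itgb2).

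Per kilobase of transcript, the members with the highest mean level in whole astrocyte TRAP were Itgb8 (17.1 ± 0.609 CPM per kilobase, SD, n = 3), Itgav (8.88 ± 1.11), Itgb1 (6.60 ± 0.643), Itgb5 (4.93 ± 1.11) and Itga6 (4.89 ± 0.324), the last 2 within their spread of each other. In endfeet TRAP the order was Itgb1 (91.0 ± 28.7 CPM per kilobase, SD, n = 6), Itga6 (59.4 ± 21.7), Nid1 (59.4 ± 12.1), Lamc1 (56.6 ± 28.5) and Itga1 (27.7 ± 3.93), where Itga6, Nid1 and Lamc1 did not differ beyond their spread. Nid1, Lamc1 and Itga1 stood at ranks 15, 7 and 16 of 41 in whole astrocyte TRAP. Reads that span an exon junction were lost to the aligner, and per position that can hold a whole read within an exon Itga6 took rank 4 in place of rank 2 in endfeet TRAP. Itga6 was counted on a non-coding transcript of 3 exons and 2721 bases. Its level per kilobase and its rank in either group are those of that transcript, and no level of its protein-coding transcript is given.

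Other genes of the pathway were read from 5 lists of 91 genes. Of 83 tested, 53 were higher and 4 lower, with a median log2 fold change of 2.97. Over all genes tested, 20.7% were higher and 13.9% lower, with a median of 0.0965. Among type IV and associated collagens, the other network of the basement membrane, 7 of 8 were higher with a median log2 fold change of 6.83, led by Col15a1 (0.0429 to 39.9 CPM as group means, log2 fold change 9.69), Col4a1 (1.68 to 228 CPM, 7.08) and Col4a6 (0.215 to 29.8 CPM, 7.07). Of 18 other basement membrane and laminin-binding proteins tested, 16 were higher and 0 lower, led by the hemicentin Hmcn1 (0.0506 to 121 CPM, log2 fold change 11.07), Tinagl1 (0.12 to 48.0 CPM, 8.55) and the fibulin Fbln2 (0.902 to 57.7 CPM, 5.99). These lists hold the molecules that surround laminins in the matrix.

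Of the 19 other integrin ligands tested, 17 were higher and 0 lower, with a median log2 fold change of 4.52. The largest were Vwf, the von Willebrand factor of endothelium (0.169 to 410 CPM, log2 fold change 11.17), Icam2 (0.0545 to 31.0 CPM, 8.95) and fibronectin, Fn1 (1.81 to 867 CPM, 8.90). Mfge8 and Edil3, secreted ligands of αv integrins, were the 2 that did not pass, at log2 fold changes of 0.03 and -0.54; they were named after their values were seen.

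The dystroglycan complex, the other laminin receptor of endfeet, was mixed. Of 17 genes tested, 6 were higher, 1 was lower and 10 did not pass, with a median log2 fold change of 0.59. The higher ones were led by Utrn (30 to 1068 CPM, log2 fold change 5.15), Sntb2 (8.94 to 70.1 CPM, 2.97) and Sspn (11.8 to 74.8 CPM, 2.65), and the lower one was α-dystrobrevin, Dtna (959 to 278 CPM, -1.79, SE 0.35, edgeR adjusted p = 0.00163). Dag1, dystroglycan itself, was named after its value was seen. It rose from 56.7 ± 5.85 CPM (SD, n = 3) to 289 ± 61.4 CPM (SD, n = 6), with all 6 endfeet libraries above (log2 fold change 2.35, SE 0.29, edgeR adjusted p = 4.65e-05).

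Integrin adaptors and signalling proteins, which act inside the cell, were also mixed. Of 21 tested, 7 were higher, 3 lower and 11 did not pass, with a median log2 fold change of 0.81. The 3 of 21 lower stood near the share of 13.9% lower over all genes tested. Parvg, of leukocytes (1.12 to 19.9 CPM, log2 fold change 4.14), Lims2 (4.29 to 47.0 CPM, 3.45) and talin, Tln1 (20.7 to 171 CPM, 3.05) led those that were higher. The 3 lower ones were Tns3 (536 to 155 CPM, log2 fold change -1.79), the kindlin Fermt2 (797 to 280 CPM, -1.51) and the integrin-linked kinase Ilk (82.9 to 32.9 CPM, -1.35), in which every endfeet library lay below every whole astrocyte library.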

How the data were processed

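RNA-seq of GFP-tagged ribosomes gave 9 libraries. The authors amplified polysomal RNA, sequenced reads of 50 bases, filtered them with Eoulsan, aligned them to mm10 with Bowtie, which does not split reads over junctions, removed reads with several alignments and counted overlaps with Ensembl annotation by HTSeq 0.5.3 (bcl2fastq 1.8.4 is also named in the submitters' processing notes). The strand setting is not given in the sources used here. Choroid plexus is stated to have been removed for the whole astrocyte extraction. The deposited values are raw counts per transcript, neither normalized nor pooled.

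Of 75466 transcripts, 73164 were matched to GENCODE M21 (22092 genes) and 2302 were left out. Each gene took the counts of 1 transcript, the one whose CPM summed to the most over all libraries, since transcripts of a gene share reads. Groups were taken from the labels, and the comparison was fitted on all 9 libraries with edgeR 4.0.16 in R 4.3.3 (TMM, factors 0.819 to 1.15, filterByExpr, glmQLFit, glmQLFTest, no covariate) and p-values adjusted after Benjamini and Hochberg were called at 0.05. A standard error is the size of the log2 fold change over the root of the F statistic. Ratios used counts plus 0.5, and intervals from 3 counts cover counting error only. Same-numbered libraries of the groups did not deviate together (correlations of -0.0359, 0.0172 and 0.0382), so the numbers do not pair them. The test was tried on simulated data for this comparison (14427 genes, equal dispersion in both groups). Of genes with a log2 change of 2, 34% were called, and 76% of those with 4. All were in the right direction, and 4 genes that had no change were also called. The dispersion of the real libraries was unequal (0.0141 for whole astrocyte and 0.725 for endfeet TRAP), so these rates may not hold for them.

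The members, lists, pairs and alternatives were chosen with earlier results of these data known. All members are counted, but 1 member and 1 marker are not reported here by name. Values by library are given for laminin α chains, linkers, integrins described together and the 8 largest fold changes. Pathway genes are named if among the 3 largest changes past the threshold per list and direction with a group mean over 10 CPM. Alternatives were DESeq2 1.42.0 (test and size factors), library totals, other filters, limma voom 3.58.1, library series, replicate block, summed or protein-coding transcripts, a minimum fold change and each library left out. Python 3.11.15, numpy 2.4.6, pandas 2.3.3 and matplotlib 3.10.9 were used.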

Additional observations from a re-analysis of the deposited data

Results flagged for a closer look

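A library stood apart from the other 5 endfeet libraries in 10 of 54 sets of values examined (the 41 members and 13 ratios, each over the 6 endfeet libraries). The rule was a gap to the next library of at least 0.625 of the range. It sets about 1 in 20 apart only for independent, normally distributed values. Several of these sets are mostly 0 and the ratios reuse the members' counts, so the number cannot be held against that rate. Endfeet library 1 was the highest in 6 of these: Lamc1 at 851 CPM (next 402), Lamc3 at 53.6 CPM (next 39.2), Hspg2 at 195 CPM (next 101), Itgb6 at 12.4 CPM (next 3.67), Itgax at 15.0 CPM (next 0.736) and the log2 ratio of Itgb8 to Itgb1 at 0.85 (next -0.55). Without that library Lamc1, Lamc3 and Hspg2 kept their calls, and Itgb6 had too few counts to be tested. Endfeet library 3 was the highest for Itga2 at 1.25 CPM (next 0.344), Itgad at 0.131 CPM (the others at 0) and Itgae at 1.84 CPM (next 0.187). Endfeet library 4 was the highest for Itga2b at 4.26 CPM (next 0.375).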

How the results depend on the processing

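Of the 29 members called higher, 21 kept their call under every one of up to 21 alternatives, and the direction of none reversed. The 8 that lost it under at least 1 were Itga10, Itga11, Itgav, Itgb2, Itgb3, Itgb4, Itgb5 and Itgb6. The number of members higher was 21 to 31 with 1 library left out, 32 with DESeq2 and 33 with limma voom, and 21 of 22 tested with at least 10 counts in every library, where Itgb8 did not pass. Over all genes tested, 1874 to 3380 were higher with 1 library left out and 3849 of 17542 with DESeq2. It was 3931 of 14427 with limma voom and 2351 of 8480 with at least 10 counts in every library. With the library series as a covariate 26 members were higher, with Itgav, Itgb3, Itgb5 and Itgb6 lost. With the replicate number as a block 27 members were higher, with Itgb3 and Itgb6 lost, and the number of members lower stayed at 0. Members lower numbered 1 with no filter beyond 1 count in total (Itgad, log2 fold change -4.35), 1 with limma voom (Itgae, -3.15), 1 with the library series as a covariate (Itgae, -7.74), 2 in the shared series alone (Itgae, -8.09, and Itgad, -7.16), 1 with counts summed over transcripts (Itgad, -4.46) and 0 to 1 with 1 library left out (1 without endfeet library 3). The fitted size of such folds depends on values at 0. Over all genes tested, 4493 of 14427 were lower with limma voom and 2819 of 14339 in the shared series, against 2006 of 14427 in the comparison. Other pathway genes lower numbered 4, and 7 with limma voom. The log2 ratio Lama5/Lama4, not called, differed between groups by 0.128, and by -0.116 (without whole astrocyte library 2) to 0.379 (without library 3) with 1 library left out. Of the 13 ratios, 10 passed, 12 with 3 counts added, 8 to 12 with an endfeet library left out, and 10, 0 and 0 without whole astrocyte library 1, 2 and 3, where the smallest possible p is 0.0357. The median log2 fold change of all genes tested was 0.0965 in the comparison and -0.29 with limma voom. The cause of these changes was not tested.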
